A study of Macaca fascicularis with 28 samples.

Results

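Annexins are calcium-dependent phospholipid-binding proteins, and their transcripts were followed through taste buds and lingual epithelium of macaques. The members were the probe sets whose symbol, taken from the study's supplementary gene list where it named the probe set and otherwise from the array annotation, was 1 of 10 annexin genes (ANXA1 to ANXA9 and ANXA11). This rule found 12 of the 52024 probe sets of the array, for 7 of the 10 genes. ANXA7, ANXA8 and ANXA11 had no probe set under these names and were not analysed here. A gene with several probe sets is described by its lead probe set, the one with the highest mean log2 value over the 28 samples.

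The samples were laser capture microdissected pieces of tongue from 10 Macaca fascicularis aged 2.6 to 4.5 years (3 males and 7 females), each hybridised to 1 Rhesus Macaque Genome Array. In the first array set, animals numbered here 1 to 6 gave whole taste buds of fungiform papillae of the anterior tongue (FG, n = 6) and epithelium without taste buds beside them (LE_FG, n = 6). Animals 1, 3, 4 and 5 also gave whole taste buds of circumvallate papillae of the posterior tongue (CV, n = 4) and the epithelium beside those (LE_CV, n = 4). In the second array set, animals 7 to 10, all aged 3 years, gave the top and the bottom portion of circumvallate taste buds (CV_top and CV_bottom, n = 4 each). No group carried a treatment or a genetic change. Each sample was a bulk capture of many cells, so fewer cells of a type and less RNA per cell cannot be told apart in any result here.

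An annexin molecule joins a variable N-terminal head to a core of repeats that docks on negatively charged membrane lipids when calcium rises. The head binds partner proteins, often members of the S100 family, and the membrane-bound core takes part in membrane repair, vesicle traffic, exocytosis and the organisation of the cortical cytoskeleton. Several annexins are abundant in the keratinocytes of stratified epithelium, while taste buds are compact groups of neuroepithelial cells that signal through intracellular calcium.

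The values were GC-RMA intensities, a background-corrected and quantile-normalised brightness on a linear scale, and 25 units was taken as the lowest level worth testing. Array medians lay between 13.6 and 16.7 units, and between 37.3% and 40.8% of probe sets reached 25 units. Type II taste cell and differentiated keratinocyte markers parted the labelled tissues. The summed intensity of 7 type II taste cell genes was 14509 to 19691 units in CV and 14972 to 18978 in FG against 150.2 to 264.1 in the epithelium, and all 12 markers of differentiated keratinocytes were lower in CV and in FG than in the adjacent epithelium. Their sum was 2529 to 21477 units in FG, 2566 to 5662 in CV and 74116 to 106393 in the epithelium. Other marker lists were less uniform. Type III taste cell sums lay apart too, at 3545 to 6623 units in CV and 3609 to 4724 in FG. In the epithelium they were 582.2 to 1375. Basal keratinocyte sums lay apart at each site. They were 2867 to 4326 units in CV and 859.0 to 2293 in LE_CV, 4872 to 6147 in FG and 331.3 to 4616 in LE_FG. Type I taste cell sums overlapped, at 3841 to 4955 units in CV and 3053 to 7747 in LE_CV. By the test given below, 5 of 6 type III genes were higher and 1 lower in CV than in LE_CV. Of 5 basal keratinocyte genes 4 were higher in CV.

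Annexins differed between taste buds and epithelium in both directions. ANXA9, ANXA1 and ANXA2 were lower in taste buds of both papilla types, ANXA3, ANXA6 and ANXA4 were higher, and ANXA5 passed the test at neither site. Of the 10 annexin probe sets that could be tested, 4 were called higher and 5 lower in CV against LE_CV (limma, Benjamini-Hochberg over 26176 probe sets, adjusted p of at most 0.05), beside 17.3% of all tested probe sets called higher and 18.0% called lower. In FG against LE_FG the counts were again 4 higher and 5 lower, beside a background of 21.1% and 20.2%. The median change of the 10 probe sets was -0.04 on the log2 scale in CV and -0.40 in FG, against -0.08 and 0.05 over all tested probe sets. The 10 probe sets stand for 7 genes, so a gene with a pair of probe sets counts 2 times. The counts come after the filter on dim probe sets, which 2 annexin probe sets did not pass and which ANXA3 passed through its taste bud samples alone.

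**Figure D1:**
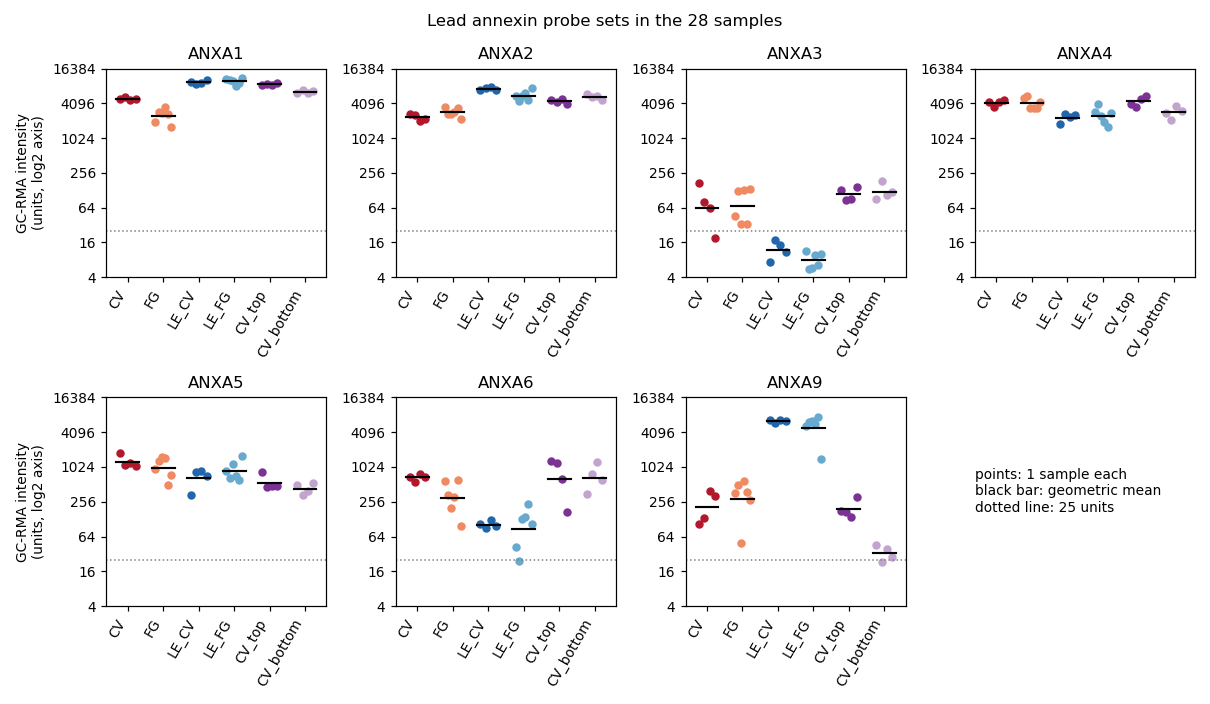
GC-RMA intensity (units, log2 axis) of the lead probe set of the 7 annexins in each of the 28 samples, by group, with 1 point per sample, the geometric mean as a black bar and 25 units as a dotted line. ANXA9 stood between 1401 and 7618 units in every epithelium sample and between 23.3 and 593.7 in every taste bud sample, while ANXA3 reached 25 units only in taste bud samples.

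ANXA9 showed the widest range of group levels among the annexins, 7.62 on the log2 scale between the highest and the lowest group mean. Its product is an atypical annexin known from human stratified squamous epithelium. In LE_CV it measured 6755, 5873, 6587 and 6475 units in animals 1, 3, 4 and 5, and in CV of the same animals 104.2, 133.7, 385.7 and 322.8. Every CV sample lay far below every LE_CV sample, a 31.4-fold difference of geometric means (log2 change -4.97 ± 0.59 SE, limma adjusted p = 2.31e-05). In the anterior tongue LE_FG ran from 1401 over a median of 5972 to 7618 units, and FG from 49.3 over 370.8 to 593.7. All 6 animals had the lower value in FG and the groups did not overlap (log2 change -4.08 ± 0.48, adjusted p = 1.92e-05, 16.9-fold). The lowest LE_FG value belonged to animal 6, and without that animal the FG change was -4.42. The second ANXA9 probe set gave log2 changes of -5.86 and -4.26 at the posterior and the anterior site (adjusted p = 5.23e-06 and 1.12e-05), and over the 28 samples its log2 values correlated with those of the lead probe set at r = 0.93. ANXA9 was low in every group in which the differentiated keratinocyte sum was low. The part of captured keratinocytes in its taste bud signal was not tested.

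ANXA1, also called lipocortin, is the annexin regulated by glucocorticoids that restrains inflammation and is cross-linked into the cornified envelope. It was bright in all 28 samples and still lower in taste buds. The 4 LE_CV samples measured 9450, 8810, 9114 and 10290 units and the 4 CV samples of the same animals 4891, 5302, 4598 and 4878. CV and LE_CV did not overlap, and within an animal the ratio ran from 0.474 to 0.602 (log2 change -0.94 ± 0.27, adjusted p = 0.0154). That call was lost without animal 1, 4 or 5 (adjusted p from 0.0541 to 0.0797), while the change stayed between -0.89 and -1.0 over all left-out animals. In the anterior tongue the drop was larger in size. LE_FG ran from 8091 over 10238 to 11098 units and FG from 1597 over 2707 to 3557, a 3.96-fold difference with no overlap (log2 change -1.99 ± 0.22, adjusted p = 1.09e-05). The second ANXA1 probe set fell at both sites by more, -3.02 ± 0.57 in CV and -3.91 ± 0.47 in FG (adjusted p = 0.00111 and 2.31e-05), and correlated with the lead probe set at r = 0.88. Both probe sets carried the same direction but not the same size.

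ANXA2 forms a complex with S100A10 that binds the plasminogen activator PLAT and plasminogen at the cell surface. Its lead probe set measured 6940, 7469, 7772 and 6998 units in LE_CV and 2675, 2619, 2031 and 2208 in CV. All 4 animals dropped to between 0.261 and 0.385 of the epithelial level (log2 change -1.62 ± 0.26, adjusted p = 0.000273). LE_FG ran from 4563 over 5452 to 7580 units and FG from 2199 over 2769 to 3508. These groups also stayed apart, by 1.95-fold (log2 change -0.96 ± 0.21, adjusted p = 0.00267). The second ANXA2 probe set was near the floor in 27 of 28 samples and was not tested.

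ANXA3, known from neutrophil granules, was dim and was found at the tested level only in taste buds. None of the 4 LE_CV and 6 LE_FG samples reached 25 units, with 7.38, 17.3, 14.3 and 10.7 units in LE_CV and 5.48 over 8.09 to 11.4 in LE_FG. CV measured 171.7, 81.2, 62.1 and 19.3 units, so that 3 of 4 samples exceeded 25, and FG ran from 32.9 over 86.5 to 132.7, all above 25. With values under 25 units raised to 25, the excess of ANXA3 over the epithelium came to at least 2.73-fold for CV and at least 2.77-fold for FG. On the log2 values as deposited the fitted changes were 2.44 ± 0.56 and 3.15 ± 0.46 (limma adjusted p = 0.00414 and 0.00013). The probe set entered the fit only through the taste bud samples and these changes are taken against values under 25 units, so they describe the samples and give no independent support. ANXA3 was higher by value in the taste buds of 4 of 4 and 6 of 6 animals. The ratios differed widely between animals, from 1.81 to 23.3 in CV. The methods' t-test after adjustment did not call the CV difference (adjusted p = 0.137). Of 5 tested leukocyte markers 0 were called higher in either kind of taste bud, while 3 were called lower in CV and 2, CD68 and LYZ, in FG. Their summed level was 233.4 to 1117 units in CV against 5275 to 6166 in LE_CV, but 543.5 to 2476 in FG against 1924 to 3561 in LE_FG, where the ranges overlapped. PTPRC and TYROBP had changes of 1.15 ± 0.75 and 0.56 ± 0.80 in FG, and the part of leukocytes in the ANXA3 level was not tested.

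ANXA6, which carries a duplicated core and binds cholesterol-rich membranes of the cell surface and endosomes, rose in both kinds of taste bud. CV measured 689.7, 561.6, 787.7 and 675.6 units and LE_CV 103.9, 88.5, 123.7 and 97.8. The within-animal ratios were nearly alike, from 6.35 to 6.91 (log2 change 2.71 ± 0.57, adjusted p = 0.00218). FG ran from 96.9 over 325.7 to 600.4 units and LE_FG from 23.9 over 118.3 to 233.8, so these groups overlapped. ANXA6 was higher in FG in 5 of 6 animals, animal 6 being the exception with a ratio of 0.910 (log2 change 1.78 ± 0.46, adjusted p = 0.00789). In contrast to the CV ratios, those in FG spread from 0.910 to 14.1. The methods' t-test after Benjamini-Hochberg adjustment did not call the FG difference (adjusted p = 0.11). The sums of basal keratinocyte and endothelial markers moved in the same direction, but not every marker did. TP63 of the basal list averaged 549.2 units in CV and 1224 in LE_CV. In FG against LE_FG 4 of 5 basal genes were called higher and 1 lower. Of the endothelial list CDH5 averaged 16.8 units in CV and 68.6 in LE_CV, and CLDN5 537.9 and 22.2. The basal sum was 2867 to 4326 units in CV and 859.0 to 2293 in LE_CV with 4 of 5 genes called higher, and the endothelial sum 517.4 to 1772 and 126.8 to 364.8 with 1 of 3 called higher. Their part in the higher ANXA6 and ANXA3 of taste buds was not tested.

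ANXA4, an annexin of secretory epithelia that restrains calcium-activated chloride conductance, was bright in every group and moderately higher in taste buds. CV measured 4397, 3565, 4304 and 4619 units and LE_CV 1773, 2690, 2344 and 2583, with no overlap (log2 change 0.86 ± 0.27, adjusted p = 0.0234, 1.81-fold). FG ran from 3354 over 3865 to 5572 units and LE_FG from 1618 over 2606 to 4046. These groups overlapped, yet FG was higher in 6 of 6 animals (log2 change 0.71 ± 0.22, adjusted p = 0.0194). Scaling matters for a change of this size. Centring each array on its median lowered all changes by 0.22 in CV and 0.44 in FG, and ANXA4 then kept its direction but not its call, at 0.64 (adjusted p = 0.0875) and 0.27 (adjusted p = 0.357). The CV call was also lost without animal 1, 4 or 5 (adjusted p from 0.0675 to 0.1) and the FG call without animal 4 or 5 (0.0737 and 0.0688). The second ANXA4 probe set gave 0.93 ± 0.24 and 1.08 ± 0.19 (adjusted p = 0.00726 and 0.000662) and was higher in the taste buds of every animal.

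ANXA5 is the phosphatidylserine-binding annexin used as a probe of apoptotic cells. CV measured 1805, 1128, 1186 and 1051 units against 336.7, 847.3, 876.3 and 704.1 in LE_CV. The groups did not overlap and CV was higher in 4 of 4 animals, but the change of 0.96 ± 0.41 missed the threshold after adjustment (adjusted p = 0.0849). FG ran from 494.0 over 1111 to 1508 units and LE_FG from 615.7 over 795.6 to 1608. The ranges lay on top of each other, with a change of 0.17 ± 0.34 (adjusted p = 0.718) that turned to -0.28 once arrays were centred.

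**Figure D2:**
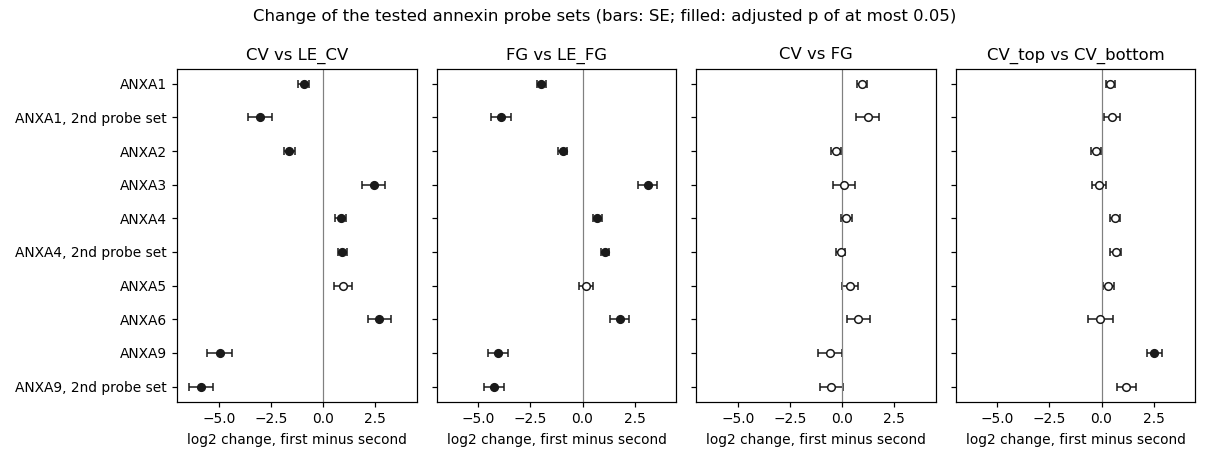
Log2 change (x axis, first group minus second, bars are SE) of the 10 tested annexin probe sets in 4 comparisons, with filled points for adjusted p of at most 0.05. In both comparisons of taste buds with epithelium 9 of 10 points are filled, and in CV against FG none is, ANXA1 standing farthest from 0 in units of its SE at 0.97 ± 0.26.

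No annexin passed the test between the taste buds of the 2 papilla types or between the 2 epithelia. In CV against FG 0 of 10 probe sets were called higher and 0 lower with limma, beside 0.378% and 0.493% of all tested probe sets, and 2 of the 10 had an unadjusted p under 0.05. Both belonged to ANXA1, whose lead probe set was 1.97-fold higher in CV, higher in 4 of 4 animals and without overlap (log2 change 0.97 ± 0.26, unadjusted p = 0.0022, adjusted p = 0.113). The fit without the animal as a block called it (adjusted p = 0.0352). LE_CV against LE_FG gave 0 calls in either direction, beside 0.970% and 0.294%, and 0 of the 10 had an unadjusted p under 0.05. ANXA1 was level between the epithelia (log2 change -0.08 ± 0.26).

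The test of whether taste buds differ from epithelium by another amount at the 2 sites called 0 of 10 probe sets higher and 0 lower, beside 0.271% and 0.600% of all tested probe sets. Only the lead ANXA1 probe set reached an unadjusted p under 0.05 there (difference of log2 changes 1.05 ± 0.35, limma adjusted p = 0.173). The larger fall of ANXA1 in FG than in CV was therefore not shown to differ between sites. For ANXA2, whose fall was larger in CV, the difference was -0.66 ± 0.33 (adjusted p = 0.369), and for ANXA9 it was -0.90 ± 0.76 (adjusted p = 0.621).

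Within circumvallate taste buds ANXA9 was higher in the top portion. CV_top measured 180.1, 170.0, 139.6 and 305.1 units in animals 7, 8, 9 and 10, and CV_bottom 44.9, 23.3, 38.5 and 28.0. The groups did not overlap, all 4 animals had the higher value at the top, and the geometric means differed 5.73-fold with the 1 bottom value under 25 units raised to 25 (log2 change 2.54 ± 0.35, adjusted p = 0.029). It was the only one of 10 annexin probe sets called higher, and 0 were called lower, beside 1.68% and 1.46% of 21167 tested probe sets. The call did not hold without any 1 animal (adjusted p from 0.0773 to 0.145) or with no filter on dim probe sets (0.0667), while the change stayed between 2.24 and 2.77 over the left-out animals. The second ANXA9 probe set had 104.4, 83.8, 60.7 and 90.5 units at the top and 38.7, 19.6, 18.5 and 122.9 at the bottom. It rose toward the top in animals 7, 8 and 9 by value but not in animal 10, and was not called (log2 change 1.2 ± 0.45, adjusted p = 0.208). Markers of several cell types differed between the portions too. Type II taste cell genes summed to 23777 to 26912 units in CV_top and 11124 to 15476 in CV_bottom, 1 of 7 being called higher (TRPM5, 1.53 ± 0.25, adjusted p = 0.0382), and of 6 type III genes 1 was called higher (PKD2L1, 1.5 ± 0.25, adjusted p = 0.0395). Of 5 leukocyte genes 1 was called higher (LYZ, 2.24, adjusted p = 0.0418). Fibroblast and cell cycle genes went the other way, with 4 of 5 and 3 of 4 called lower. Their sums were 626.8 to 1804 and 142.3 to 325.1 units in CV_top against 4555 to 6116 and 889.7 to 2114 in CV_bottom. Of 5 basal keratinocyte genes 1 was called lower (TP63, -3.16 ± 0.49, adjusted p = 0.0348). The differentiated keratinocyte sums overlapped, at 2541 to 7847 and 4695 to 9993 units, and 0 of 8 tested markers were called, with KRT13 at -2.23 ± 0.44 (adjusted p = 0.0532) and SPRR1B at 0.58 ± 0.46. The part of these cell types in the ANXA9 difference was not tested.

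**Figure D3:**
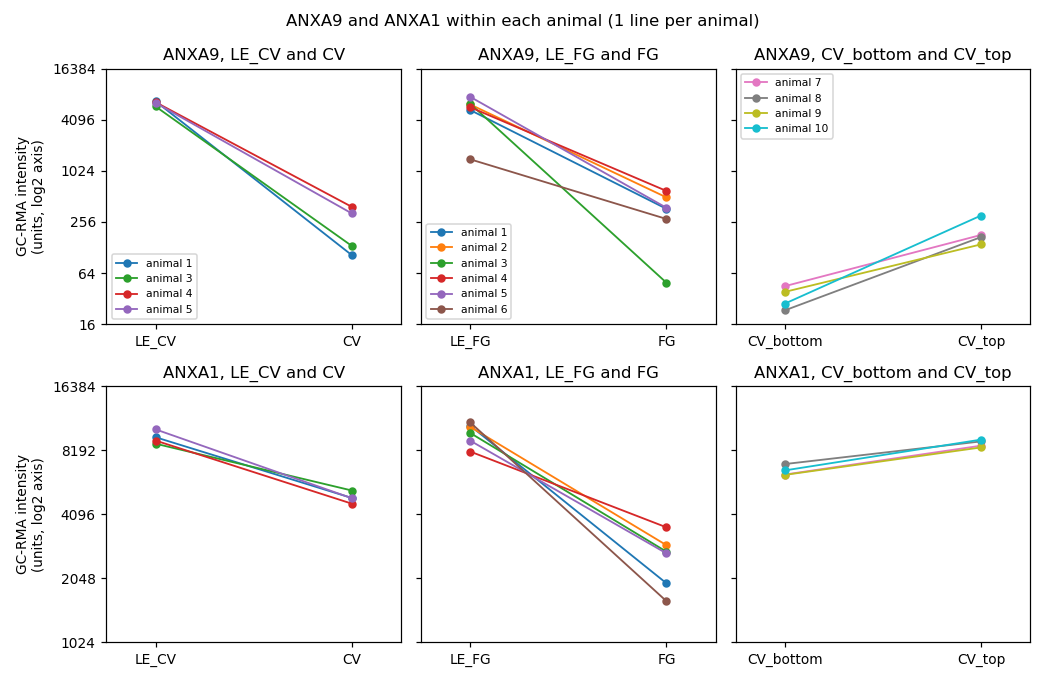
GC-RMA intensity (units, log2 axis) of the lead ANXA9 and ANXA1 probe sets in paired samples, with 1 line per animal joining LE_CV and CV, LE_FG and FG, or CV_bottom and CV_top. Every line falls from epithelium to taste bud and every line climbs from bottom to top, from 23.3 to 44.9 up to 139.6 to 305.1 units for ANXA9.

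ANXA1 and ANXA4 were also higher at the top by value in every animal, without passing the test. For ANXA1 CV_top measured 8621, 9031, 8461 and 9207 units and CV_bottom 6304, 7063, 6281 and 6593. These narrow groups did not overlap, but the change of 0.43 ± 0.23 was not called (adjusted p = 0.361). ANXA4 gave 3921, 3554, 4938 and 5528 units at the top and 2824, 2087, 3647 and 3065 at the bottom (log2 change 0.63 ± 0.24, adjusted p = 0.217), and its second probe set 0.69 ± 0.26 (adjusted p = 0.208). ANXA2 ran the other way in 4 of 4 animals by value, with 4605, 4404, 4876 and 3985 units at the top and 5917, 5259, 5517 and 4653 at the bottom (log2 change -0.25 ± 0.24, adjusted p = 0.599). ANXA3 and ANXA6 had changes of -0.12 ± 0.34 and -0.06 ± 0.61. ANXA6 spread widely in both portions, with 1310, 1213, 640.4 and 167.0 units at the top and 355.8, 763.0, 1231 and 598.1 at the bottom, and 2 animals had the higher value at each end.

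Against LE_CV, which came from other animals and the other array set, tissue and array set cannot be told apart. Both comparisons use the same 4 LE_CV samples as CV did. In CV_top 4 of 10 annexin probe sets were called higher and 4 lower, beside 25.1% and 19.3% of 27751 tested probe sets. In CV_bottom 3 were higher and 3 lower, beside 23.1% and 19.0%. With arrays centred on their medians, which lowered the changes by about 0.54 and 0.41, the counts became 3 higher and 5 lower for CV_top and 2 higher and 6 lower for CV_bottom. ANXA9 again stood lowest, with -5.07 ± 0.59 in CV_top and -7.61 ± 0.59 in CV_bottom (adjusted p = 2.02e-07 and 2.58e-10). ANXA6 was higher in both portions (2.67 ± 0.65 and 2.73 ± 0.65). ANXA3 was at least 4.39-fold higher in CV_top and at least 4.78-fold higher in CV_bottom, with LE_CV values under 25 units raised to 25. ANXA2 was called lower in CV_top (-0.71 ± 0.21, adjusted p = 0.00753) and had -0.45 ± 0.21 in CV_bottom (adjusted p = 0.08). The lead ANXA1 probe set was called in neither portion (-0.09 ± 0.22 in CV_top and -0.52 ± 0.22 in CV_bottom, limma adjusted p = 0.757 and 0.0548). The second ANXA1 probe set was called lower in both (-1.90 ± 0.54 and -2.40 ± 0.54, limma adjusted p = 0.0067 and 0.000999). ANXA4 was higher in CV_top at 0.92 ± 0.27 (adjusted p = 0.00772), a call lost when arrays were centred (0.38, adjusted p = 0.301), and in CV_bottom its 0.28 ± 0.27 turned to -0.12. The second ANXA4 probe set was called higher in both, at 1.64 ± 0.21 in CV_top (adjusted p = 1.3e-06) and 0.95 ± 0.21 in CV_bottom (adjusted p = 0.000952), so the probe sets of ANXA4 did not give the same result for CV_bottom.

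For 3 of the annexins every whole circumvallate taste bud sample lay outside the values of both portions. For ANXA1 the 4 CV samples reached at most 5302 units while the 8 portion samples began at 6281, and for ANXA2 the CV samples reached at most 2675 while the portions began at 3985. ANXA5 ran the opposite way, with CV samples from 1051 units and portions up to 840.4. Of the 10 tested annexin probe sets 2 thus lay below both portions without overlap and 1 above, beside 4.50% and 2.35% of all tested probe sets. The other 7 overlapped, the second ANXA1 probe set among them. By geometric mean CV also lay outside both portions for ANXA3, ANXA6 and ANXA9, with overlapping samples. The portions came from 4 other animals and were processed as a second array set, and animal, set and dissection cannot be told apart here.

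The order of the 6 groups, given here for lead probe sets, differed between annexins. For ANXA9 both epithelia came first, FG, CV and CV_top followed with overlapping values, and CV_bottom came last and apart. For ANXA1 the order was LE_FG, LE_CV and CV_top, which overlapped as neighbours, and then CV_bottom, CV and FG, each separate from the next. For ANXA3 all 4 taste bud groups overlapped as neighbours above both epithelia. For ANXA4, ANXA5 and ANXA6 every group overlapped the next one in order, ANXA5 falling from 1262 units in CV (geometric mean) to 433.5 in CV_bottom. The second probe sets differed in these overlaps. For ANXA1 every group overlapped the next, and for ANXA9 CV_bottom was not apart. For ANXA4 CV_top was separate from FG, and CV from LE_CV. Within a group the coefficient of variation of ANXA1 ran from 3.9% in CV_top to 27.4% in FG. ANXA6 varied by 13.6% in CV but by 57.1% in FG and 64% in CV_top.

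Genes whose proteins work with annexins were read from a list of 16, of which 14 had a probe set. In CV against LE_CV 10 could be tested, 3 being called higher and 4 lower with a median change of -0.59, and in FG against LE_FG 4 were higher and 3 lower with a median of -0.21, beside medians of -0.08 and 0.05 over all tested probe sets. The background shares called higher and lower were 17.3% and 18.0% in CV and 21.1% and 20.2% in FG. Among the S100 proteins that bind annexin heads, S100A6 and S100A4 rose. S100A4 changed by 1.64 ± 0.57 in CV and 1.65 ± 0.46 in FG (adjusted p = 0.0369 and 0.012). S100A6 averaged 3710 ± 599 units in CV and 556.4 ± 116 in LE_CV (SD, n = 4 each, log2 change 2.75 ± 0.36 SE, adjusted p = 5.62e-05). S100A11, the S100 protein that pairs with ANXA1, fell as ANXA1 did, to 4066 ± 612 from 6510 ± 812 units in CV (log2 change -0.68 ± 0.25, adjusted p = 0.0435) with a change of -0.74 ± 0.20 in FG (adjusted p = 0.01). S100A10, the partner of ANXA2, did not pass the test at either site (-0.50 ± 0.34 and -0.28 ± 0.28, adjusted p = 0.27 and 0.445). Against LE_CV it was called higher in CV_top and CV_bottom (1.01 ± 0.29 and 1.43 ± 0.29, limma adjusted p = 0.00675 and 0.000323). S100A11 was called in neither portion against LE_CV (-0.04 ± 0.20 and 0.30 ± 0.20, limma adjusted p = 0.893 and 0.241). Of 12 partners tested there, 7 were higher and 2 lower in CV_top, and 6 and 2 in CV_bottom. The background shares were 25.1% and 19.3%, and 23.1% and 19.0%. Tissue and array set cannot be told apart in these comparisons.

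The other partners moved both ways. PLAT, the tissue plasminogen activator that the complex of ANXA2 and S100A10 binds, measured 321.9 ± 48.7 units in CV and 365.7 ± 131 in FG, while no sample of LE_CV or LE_FG reached 25 units. With values under 25 units raised to 25, the excess of PLAT came to at least 12.8-fold for CV and at least 13.7-fold for FG (limma adjusted p = 5.37e-07 and 3.59e-08). PLAT entered the fit only through the taste bud samples, so these values describe the samples and give no independent support. In whole taste buds PLAT was high and ANXA2 low against epithelium. The portions did not share this pattern. PLAT averaged 707.8 units in CV_top, with a lowest sample of 9.71, and 373.7 in CV_bottom. ANXA2 averaged 4468 and 5336 units there against 2383 in CV. SRI, the sorcin that binds ANXA7, rose in FG (1.51 ± 0.29, adjusted p = 0.00111) and had 0.94 ± 0.35 in CV (adjusted p = 0.0525). AHNAK, a scaffold that the complex of ANXA2 and S100A10 holds at the membrane, was under 25 units in all CV and FG samples. In their epithelia it was at least 2.73-fold and at least 1.93-fold higher (limma adjusted p = 9.48e-05 and 0.00124). AHNAK entered this fit only through the epithelium samples, so these values describe the samples and give no independent support. PDCD6IP of the membrane abscission machinery fell in CV and FG (-2.05 ± 0.29 and -1.68 ± 0.24). DYSF, the membrane repair protein dysferlin, was under 25 units in all CV samples and was called lower there (limma adjusted p = 0.0169). It reached 25 units in 1 of 6 FG, 3 of 4 LE_CV and 5 of 6 LE_FG samples. DYSF passed the filter of this fit through the epithelium samples, so the call describes the samples and gives no independent support. Against LE_CV DYSF was also called lower in CV_top (adjusted p = 0.0285) but not in CV_bottom (adjusted p = 0.399). In these comparisons DYSF ran from 12.7 to 917.8 units in LE_CV. In FG it was not called (adjusted p = 0.303), and the difference between the sites was not called either (adjusted p = 0.418). Between CV_top and CV_bottom 0 of 12 tested partners were called, AHNAK coming nearest at -1.08 ± 0.26 (adjusted p = 0.0796). FPR1, a formyl peptide receptor that ANXA1 engages, stayed at or below 20.2 units in every sample and FPR3 at or below 9.38, and neither could be tested.

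**Figure D4:**
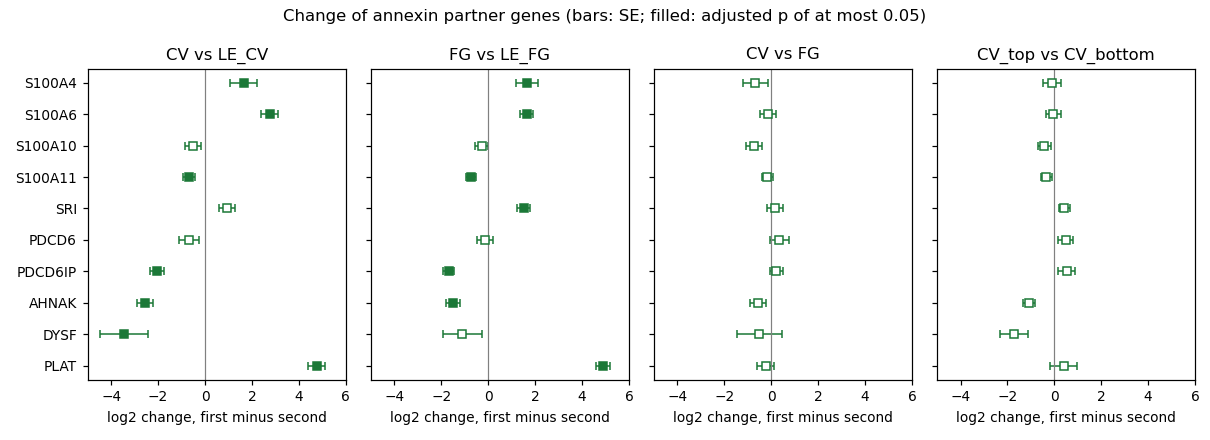
Log2 change (x axis, first group minus second, bars are SE) of the 10 annexin partner genes tested in the first array set, in 4 comparisons, with filled squares for adjusted p of at most 0.05. PLAT is drawn at 4.77 and 4.88 against epithelium values under 25 units, AHNAK and DYSF from CV and FG values mostly under 25 units, and no square is filled in CV against FG or in CV_top against CV_bottom.

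Across the 28 samples the annexins fell into opposite patterns, given as a description because the samples share 10 animals and 6 groups. ANXA9 and ANXA3 correlated at r = -0.85 (Pearson, log2 values), ANXA9 and ANXA6 at -0.74, and ANXA3 and ANXA6 at 0.68. ANXA1 and ANXA2, both low in whole taste buds and intermediate or high in their portions, correlated at 0.74. Among 11465 genes with a tested probe set, those most like ANXA9 were CLPX (r = 0.93), GSDMA (0.93) and CNFN (0.92), the last being a keratinocyte marker of the list used above. Those most like ANXA6 were CTSF (0.85), CPSF4 (0.84) and TAS2R48 (0.83), and those most like ANXA3 were a transcript listed only by a cluster number (0.94), DTX3 (0.925) and TIA1 (0.92).

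Of the 12 annexin probe sets 2 were too dim to test. The dimmest ANXA1 probe set stayed between 4.04 and 11.8 units in all 28 samples, although the other ANXA1 probe sets reached 11098 and 4966 units. The second ANXA2 probe set reached 25 units in 1 of 28 samples, CV of animal 5 with 105.7 units, and stood at 7.13 or less in all others. The array also named ANXA10 and ANXA13, which are not members, and their summed intensity reached at most 43.1 units.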

How the data were processed

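Laser-captured taste bud and epithelium samples were measured on 1 array each. The deposited values are linear intensity values per probe set, background-corrected and quantile-normalised over the 28 arrays by the authors with GC-RMA, and the software version is not given in the sources used here. All deposited intensity values were transformed to log2 here, and all 28 columns were matched to samples by the labels. A probe set was tested where 4 or more samples of a fit reached 25 units, with limma 3.58.1 in R 4.3.3 (lmFit, contrasts.fit, eBayes), and p-values were adjusted by the Benjamini-Hochberg method over all of them. CV, FG, LE_CV and LE_FG were fitted together (20 samples, 11 residual degrees of freedom) and CV_top with CV_bottom (8 samples, 3 residual degrees of freedom), both with the animal as a block. For the portions against LE_CV all 28 samples entered, and the animal was a random block with an estimated correlation of 0.0394. The animal identities in the labels pair the samples, and deviations of the same animal correlated at 0.05 to 0.12 on average against -0.04 to -0.01 for different animals. The methods' t-test was paired over animals for groups of the same animals.

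Members, partner list and marker lists were chosen with earlier results of these data known. The lead probe set of a gene was named by its mean log2 value, the other probe sets by agreement, and the most alike genes by Pearson's r for the 3 annexins with the widest range. Of 52024 probe sets 25778 had 1 symbol from either source and 26246 had none or several. The fits were checked on data with known changes. Arrays give no count depth, and the number of animals per group limits the precision. No 2 arrays held identical values. Alternatives were values raised to 25 units, no filter, a minimum of 50 units, arrays centred on their medians, no block, each animal left out, all epithelium as 1 group and the methods' t-test. The mean array medians of the tested log2 values, which centring removes, differed by 0.17 between LE_CV and LE_FG, 0.13 between CV_top and CV_bottom, -0.06 between CV and FG and -0.22 in the difference between sites, beside the shifts given in the results. Labels and methods name different amplification kits, and which was used is not settled here.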

Additional observations from a re-analysis of the deposited data

Results flagged for a closer look

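Of 60 groups of 4 to 6 annexin values, 5 held a sample whose gap to the nearest other sample was wide for the range of its group by Dixon's criterion, and chance gives such a gap in about 1 in 20 groups. The LE_FG sample of animal 6 gave 2 of them, with 1401 units for the lead ANXA9 probe set against 5324 to 7618 in the other 5 animals, and 240.8 units for the second against 1575 to 2466. The same sample had the lowest differentiated keratinocyte sum of its group (74116 units against 94741 to 103848), the highest basal keratinocyte sum (4616 against 331.3 to 2666) and the highest cell cycle sum (757.7 against 50.8 to 183.2), and their part in its ANXA9 level was not tested. In FG, animal 3 had 49.3 units for the lead ANXA9 probe set against 277.7 to 593.7 in the others. Its muscle sum was the highest of its group (1308 against 69.3 to 281.5), as was its type II sum (18978 against 14972 to 18911). Its fibroblast sum was the lowest (738.8 against 1768 to 3592). Its differentiated keratinocyte sum was 11142 units against a median of 4499 in the others. The part of these cell types in its ANXA9 level was not tested. In LE_CV, animal 1 had 1481 units for the second ANXA4 probe set against 1877 to 1953. In CV_top, animal 7 had 840.4 units for ANXA5 against 468.5 to 477.0.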

How the results depend on the processing

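Over the alternatives, 197 counts of called probe sets stayed within 1.5 times the count reported, 8 fell and 7 rose beyond that, and of single lead probe sets 668 values kept direction and side of the threshold, 20 lost the call, 11 gained it and 15 changed sign, with 0 of these 15 called. In CV against LE_CV the methods' t-test after adjustment called 2 probe sets higher, and leaving out animals gave 2 to 4 (2 without animal 4). In CV against FG 1 was higher without the block and 1 with the unadjusted t-test. For CV_top against CV_bottom 0 were higher with no filter, 0 without each animal and 0 with the adjusted t-test, while the unadjusted t-test called 4 higher and 1 lower. For CV_bottom against LE_CV 5 were lower with values raised to 25 units, 6 with centred arrays and 5 with all epithelium as 1 group, ANXA1 among them. With centred arrays ANXA5 turned to -0.28 in FG against LE_FG, and ANXA4 to -0.16 in LE_CV against LE_FG and -0.12 in CV_bottom against LE_CV. In the fit with no replicate block ANXA3 was -0.11 in CV against FG, ANXA4 -0.11 and ANXA6 0.23 in LE_CV against LE_FG, and the block changed no call of a lead probe set but that of ANXA1 in CV against FG. With animals left out the changes ran from -0.43 to 0.44 for ANXA3 in CV against FG, from -0.13 to 0.31 for ANXA4 and -0.51 to 0.18 for ANXA6 in LE_CV against LE_FG, and from -0.34 to 0.21 for ANXA3 and -0.70 to 0.54 for ANXA6 in CV_top against CV_bottom. The t-test after adjustment did not call ANXA3 and ANXA4 in CV (0.137 and 0.082). The cause of these changes was not tested. Values under 25 units limit ANXA3 in epithelium and ANXA9 in CV_bottom.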
